A study of Mus musculus with 12 samples.

Results

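Cytokine transcripts were measured in bone marrow-derived macrophages (BMDMs) that had received no inflammatory stimulus. The set holds 10 gene symbols, Tnf, Il1b, Il1rn, Il6, Il10, Il18, Tgfb1, Osm, Csf1 and Tnfsf9. They were chosen by name, with earlier results of these data known. Of these, 9 had a row among the 12960 genes of the count table, and all 9 were among the 10822 genes left by the filter on low counts. Il6 was not analysed here. BMDMs came from wild type (WT) mice and from mice in which the β1 subunit of AMP-activated protein kinase (AMPK) is knocked out in the whole body (AMPKβ1-/-). Cells of each genotype received vehicle (0.1% DMSO) or 10 µM PF-06409577, a small molecule activator of AMPK complexes that contain β1, for 6 h. Each of the 4 groups has 3 libraries. All groups were grown from marrow in L929 medium, a source of M-CSF, and the AMPKβ1-/- cells had therefore lacked the subunit throughout differentiation. Age and sex are not given in the sources used here, and neither is whether the 3 libraries of a group came from separate mice, so p-values measure only the spread between these libraries.

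Macrophages at rest keep most inflammatory cytokine genes poised but weakly transcribed, and bacterial products such as lipopolysaccharide induce them through NF-κB and AP-1. TNF, IL-1β, IL-18 and oncostatin M are pro-inflammatory ligands, while IL-10, TGF-β1 and the IL-1 receptor antagonist, encoded by Il1rn, restrain inflammation. IL-1β and IL-18 are made as precursors that caspase-1 cleaves, TNF is shed from the membrane by ADAM17, and TGF-β1 is secreted in a latent complex, so transcript levels do not give the amount of active protein. AMPK is the energy sensor of the cell, and the comparisons address how its activation through β1 bears on the resting level of these transcripts.

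The promoters of the 4 members that differed between genotypes in the presence of PF-06409577 are shown first, because these members carry the main result. Each window runs from 250 bases before to 50 bases after the start of transcription in RefSeq on GRCm38.p6, 5′ to 3′ on the strand of the gene, and 7 of the 10 symbols had such a window. The windows lie at chr2:24336610-24336909 on the plus strand for Il1rn, which has 3 annotated starts of which the most upstream is shown, at chr2:129371090-129371389 on the minus strand for Il1b, at chr3:107760420-107760719 on the minus strand for Csf1 and at chr7:25686752-25687051 on the plus strand for Tgfb1. Capitals mark matches to AP-1 (TGANTCA), the cyclic AMP response element (TGACGTCA), the TATA box (TATAAA), the PU.1 core (GAGGAA) or the NF-κB consensus. Matches were taken on either strand, except those to the TATA box, which were taken on the strand of the gene only.
Il1rn: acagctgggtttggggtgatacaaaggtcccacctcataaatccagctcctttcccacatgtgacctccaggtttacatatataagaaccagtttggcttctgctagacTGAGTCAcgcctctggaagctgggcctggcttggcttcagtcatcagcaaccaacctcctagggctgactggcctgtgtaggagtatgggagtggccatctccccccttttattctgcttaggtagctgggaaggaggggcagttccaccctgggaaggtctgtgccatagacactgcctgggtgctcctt
Il1b: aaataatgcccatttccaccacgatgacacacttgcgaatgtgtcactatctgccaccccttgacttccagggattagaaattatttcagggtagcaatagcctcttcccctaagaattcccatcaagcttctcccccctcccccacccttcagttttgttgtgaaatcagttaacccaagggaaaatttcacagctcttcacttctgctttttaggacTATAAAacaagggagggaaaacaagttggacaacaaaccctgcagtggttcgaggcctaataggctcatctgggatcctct
Csf1: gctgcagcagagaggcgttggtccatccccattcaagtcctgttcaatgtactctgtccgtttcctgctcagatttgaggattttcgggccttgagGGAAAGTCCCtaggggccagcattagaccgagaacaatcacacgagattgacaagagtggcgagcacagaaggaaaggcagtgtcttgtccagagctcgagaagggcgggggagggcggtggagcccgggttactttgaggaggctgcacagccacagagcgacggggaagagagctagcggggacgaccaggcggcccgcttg
Tgfb1: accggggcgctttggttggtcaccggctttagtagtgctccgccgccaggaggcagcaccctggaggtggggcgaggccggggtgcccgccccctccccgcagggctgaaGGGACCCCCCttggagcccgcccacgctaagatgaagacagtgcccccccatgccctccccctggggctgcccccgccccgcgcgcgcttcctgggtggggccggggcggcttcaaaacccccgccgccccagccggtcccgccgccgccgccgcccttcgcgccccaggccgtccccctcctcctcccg
The Il1rn window shown held an AP-1 match that began 141 bases before the start, and the Il1b window held a TATA box 31 bases before the start. The windows of the other annotated Il1rn starts held no match to any of the 5 motifs. Counts per gene do not tell which start was used. The Csf1 and Tgfb1 windows each held a match to the NF-κB consensus, which began 154 and 140 bases before the start. Among all 32851 windows, 7.81% held an AP-1 match, 8.32% a TATA box, 8.46% the NF-κB consensus, 1.79% the cyclic AMP response element and 28.3% the PU.1 core. No motif of the 5 was found in all 4 windows. The windows also differed in base composition, since GC content was 77% for Tgfb1, 58.7% for Csf1, 54% for Il1rn and 45.7% for Il1b.

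Many cytokine transcripts carry AU-rich elements in the 3′ untranslated region, where decay factors such as tristetraprolin (Zfp36) bind, and the clusters below show how far the members differ in this feature. Capitals mark the pentamer ATTTA.
Tnf: ATTTAttATTTATTTAttATTTATTTA
Il1b: ATTTATTTAtgtATTTA
Osm: ATTTAtaaggcctATTTA
Csf1: ATTTAaatatctATTTA
Tnf held 8 ATTTA pentamers in its 3′ untranslated region and 5 copies of the nonamer TTATTTATT, Il10 and Osm held 6 pentamers, Il1b and Csf1 4, Tnfsf9 2, and Il18 and Tgfb1 1. Il1rn held none in 1864 bases, whereas its agonist Il1b held 4 in 459 bases. Of 10658 tested genes with such a region, 69.9% held at least 1 pentamer and 8.04% held the nonamer. The Tnf cluster shown lies 440 to 466 bases after the stop codon.

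The libraries held 8935609 to 14358180 counts, so that 3 counts, the most that a count of 0 allows, correspond to 0.196 to 0.321 CPM (counts scaled to the size of the library), and such limits and intervals cover counting error only. Prkab1, the gene of the β1 subunit, was at 37.3 to 45.3 CPM in the 6 WT libraries and at 6.05 to 9.42 CPM in the 6 AMPKβ1-/- libraries. All 10 macrophage markers were present, with a summed level of 36987 to 48256 CPM. Markers of other cells were low, with sums of at most 1.39 CPM for 5 of 9 granulocyte markers with a row, 0.308 CPM for 2 of 9 lymphoid markers, 1.46 CPM for 5 of 6 dendritic cell markers and 10.4 CPM for 6 of 7 fibroblast markers, the last in an AMPKβ1-/- vehicle library. The fibroblast sum was 1.31 to 3.18 CPM in WT and 2.59 to 10.4 CPM in AMPKβ1-/- libraries. The part of such cells in the cytokine levels was not tested. Of 18 genes that lipopolysaccharide induces, 14 had a row, with a summed level of 53.0 to 153 CPM, and 7 passed the filter on low counts, among them Acod1, Cd40, Cxcl10 and Ccl5. The other 7 with a row had at most 13 counts in a library, for instance Nos2 with at most 7, Il12b with at most 4, Ptgs2 with at most 3 and Il1a with at most 2. In bulk RNA, fewer cells that make a transcript and less RNA per cell cannot be told apart.

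Resting BMDMs expressed the 9 cytokines at levels that spanned about 2 orders of magnitude, with TGF-β1, which keeps macrophages in a regulatory state, far above the rest. Per length, in FPKM (CPM per kilobase of merged exons), WT vehicle cells held 161 ± 16.6 FPKM of Tgfb1 (SD, n = 3) and 27.2 ± 1.03 FPKM of Tnf. The other 7 lay close together on this scale, with Il18 at 2.76 ± 0.682 FPKM, Tnfsf9 at 2.41 ± 0.167, Il10 at 2.37 ± 0.0913, Osm at 2.34 ± 0.403, Il1rn at 2.33 ± 0.306, Il1b at 1.89 ± 0.235 and Csf1 at 1.48 ± 0.525 FPKM. Neighbouring members of that order differed by less than their SD from Il18 down to Il1rn, so the order among them is not resolved. Per length of the longest coding transcript instead of merged exons, Il1rn was at 5.21 ± 0.685 FPKM and above Il18 at 3.22 ± 0.795, Il1b at 2.66 ± 0.331 and Csf1 at 1.87 ± 0.664, and Tgfb1 was at 374 ± 38.6 FPKM, while Tnf, Tnfsf9, Il10 and Osm have the same length on both scales. The place of Il1rn among the 7 therefore depends on the length used, since its merged exons span 5535 bases and its longest coding transcript 2474. Tgfb1 and Tnf led in every group on both scales. In counts, Tgfb1 was read 4869 to 8438 times per library and Tnf 322 to 594 times, whereas the lowest value of any member was 13 counts for Il10 in a WT library with PF-06409577, for which the exact 95% Poisson interval is 6.92 to 22.2 counts.

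**Figure D1:**
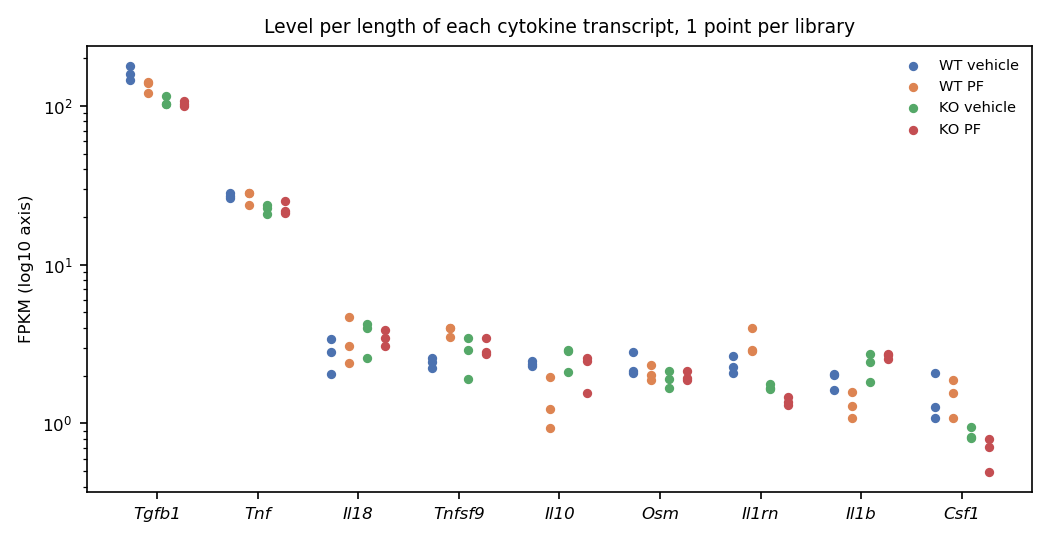
Level per length of the 9 cytokine transcripts (FPKM, log10 axis) in each of the 12 libraries, coloured by group (KO, AMPKβ1-/-; PF, PF-06409577). Tgfb1 at 161 FPKM and Tnf at 27.2 FPKM in WT vehicle cells stand above the other 7 members, which lie between 1.48 and 2.76 FPKM.

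The transcripts of the IL-1 receptor antagonist and of Tnfsf9 were higher in WT BMDMs with PF-06409577, while Tnf, the prototype inflammatory cytokine, did not move by a detectable amount. A gene was called at a Benjamini-Hochberg adjusted p below 0.05 over all 10822 genes in edgeR's quasi-likelihood test. By this rule 2 of the 9 cytokines rose and none fell, beside 15.9% of all tested genes called, 6.99% higher and 8.95% lower. Which members were called depended on a trend in the libraries with the GC content and length of transcripts, since after its removal 0 rose and 2 fell, namely Il10 and Il1b. With either other way to remove the trend, Tnfsf9 was called higher as well. Neither Il1rn nor Tnfsf9 passed the study's additional limit of a log2 fold change past 0.8, which 1.52% of genes passed. The libraries of both treatments did not overlap for 5 members, 2 higher and 3 lower, as they did for 32.2% of all genes. The median log2 fold change was −0.02 over the members and 0.00 over all tested genes.

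Il1rn encodes the secreted antagonist that occupies the IL-1 receptor without signalling, and lies at chr2:24336853-24351494 on the plus strand of GRCm38. Its level was 14.8, 12.5 and 11.4 CPM in the WT vehicle libraries and 22.1, 15.9 and 16.2 CPM with PF-06409577. All 3 treated libraries were above all 3 vehicle libraries, and the highest was WT PF-06409577 library 1. The rise was 1.40-fold, or 0.49 ± 0.15 on the log2 scale (SE), with an adjusted p of 0.0371. In 12 of 22 alternative fits the adjusted p passed 0.05. With the trend in GC content removed in 3 ways, the log2 value was 0.22 to 0.23 (adjusted p = 0.508 to 0.53), and the call was also lost with the libraries of the comparison alone and in the fits that left out WT PF-06409577 library 1, 2 or 3 (adjusted p = 0.0871, 0.0555 and 0.0601), WT vehicle library 2 or 3 (0.0648 and 0.12), AMPKβ1-/- vehicle library 2 (0.0506) or AMPKβ1-/- PF-06409577 library 1 or 3 (0.0517 and 0.0515), while its sign was positive in all 22.

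Tnfsf9, which encodes a TNF family ligand that costimulates T cells through Tnfrsf9, lies at chr17:57105325-57107757 on the plus strand. It was at 3.31, 3.14 and 2.89 CPM with vehicle and 5.15, 4.49 and 5.15 CPM with PF-06409577 in WT cells. Every treated library exceeded every vehicle library, and this member had the largest increase of the 9. The increase was 1.59-fold, 0.67 ± 0.21 on the log2 scale, with an adjusted p of 0.0473. The log2 fold change stayed between 0.61 and 0.76 in 22 alternative fits, of which 7 kept the adjusted p below 0.05. Tnfsf9 was not called in DESeq2, in limma-voom, without the filter on low counts or with the libraries of the comparison alone. With the trend in GC content and length removed the adjusted p was 0.0569, and with either other way to remove it 0.0467 and 0.0361. Every fit without a WT library gave an adjusted p of 0.0573 to 0.153, and those without AMPKβ1-/- PF-06409577 library 1, 2 or 3 or AMPKβ1-/- vehicle library 2 gave 0.0578 to 0.0625.

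For 3 members the treated WT libraries all lay below the vehicle libraries without passing the test. Il10, the main anti-inflammatory interleukin of macrophages (chr1:131019845-131024974, plus strand), was at 2.99, 3.23 and 3.09 CPM with vehicle and at 2.57, 1.22 and 1.62 CPM with PF-06409577, a log2 fold change of −0.78 ± 0.28 with an adjusted p of 0.069. Without WT PF-06409577 library 1, the library with the most Il10 of the treated WT samples, the value was −1.11 with an adjusted p of 0.0142. Il1b, the agonist that Il1rn opposes (chr2:129364570-129371139, minus strand), was at 3.85, 3.88 and 3.09 CPM with vehicle and 2.06, 2.99 and 2.46 CPM with PF-06409577. Its log2 fold change was −0.53 ± 0.22 with an adjusted p of 0.102. Tgfb1 (chr7:25687002-25705077, plus strand) was at 902, 735 and 805 CPM with vehicle and 715, 704 and 612 CPM with the compound, a log2 fold change of −0.27 ± 0.089 with an adjusted p of 0.0528. Tgfb1 passed the threshold in DESeq2 (adjusted p = 0.0452) and without WT vehicle library 2 (0.0249), WT PF-06409577 library 1 (0.0291) or AMPKβ1-/- vehicle library 1 (0.0416), and was at 0.02, 0.01 and −0.01 with the GC trend removed in 3 ways (adjusted p = 0.865 to 0.944).

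The remaining 4 members overlapped between WT treatments. Tnf (chr17:35199381-35202007, minus strand) was at 44.4, 42.9 and 46.3 CPM with vehicle and 46.5, 46.3 and 39.1 CPM with PF-06409577. With 415 to 542 counts per WT library, its log2 fold change of −0.02 had a 95% interval of −0.25 to 0.21, and changes past either bound lie outside it. Csf1, which encodes the growth factor that macrophages need to survive (chr3:107741048-107760469, minus strand), ranged from 5.72 to 10.9 CPM with vehicle and from 5.69 to 9.95 CPM with the compound, with a log2 fold change of 0.02 and a 95% interval of −0.55 to 0.59. Osm, an IL-6 family ligand (chr11:4236420-4241026, plus strand), had a log2 fold change of −0.18 with an interval of −0.60 to 0.24. Il18, the IL-1 family precursor that induces interferon γ in lymphocytes (chr9:50554827-50581840, plus strand), had 0.32 with an interval of −0.33 to 0.97. Il18 and Osm had 23 to 69 counts per WT library. A rise of the size seen for Il1rn (0.49) lies inside the intervals of Il18 and Csf1. It lies outside that of Osm, whose interval includes a fall of that size.

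**Figure D2:**
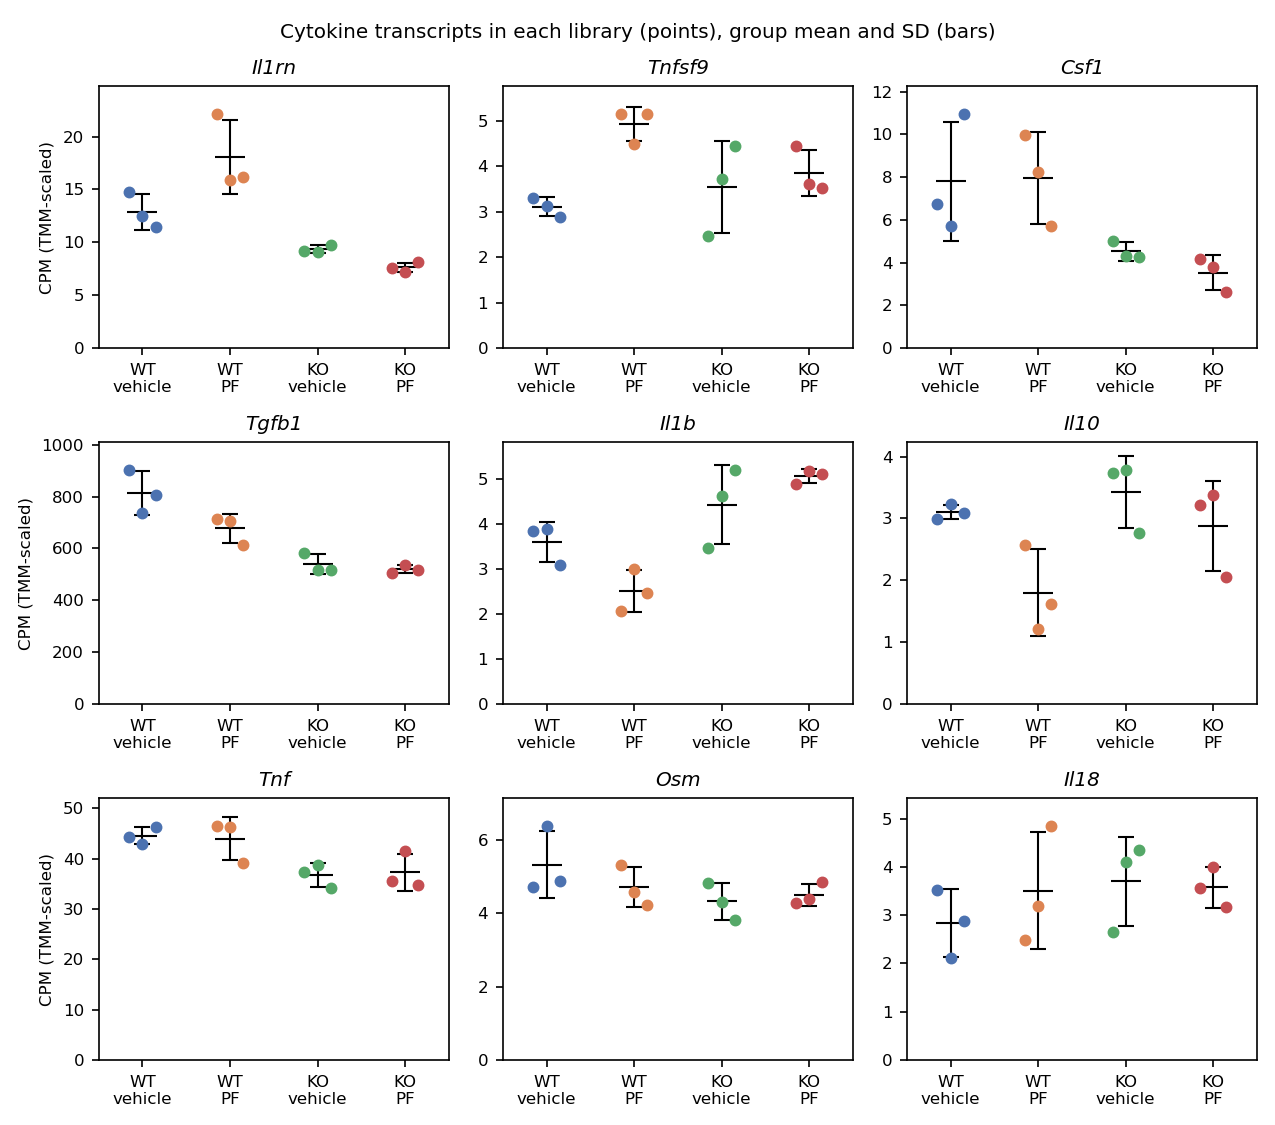
Level of each cytokine transcript (CPM, linear axis from 0) in the 12 libraries by group (KO, AMPKβ1-/-; PF, PF-06409577), with group mean and SD as bars. Il1rn was highest in WT cells with PF-06409577 (15.9 to 22.1 CPM) and lowest in AMPKβ1-/- cells with PF-06409577 (7.22 to 8.09 CPM), and Il1b had the opposite order in those groups (2.06 to 2.99 against 4.88 to 5.18 CPM).

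In AMPKβ1-/- BMDMs no cytokine was called with PF-06409577, beside 0.0554% of all genes. No member had an unadjusted p below 0.05 in edgeR's test, against 4.98% of all genes, and none was called by DESeq2 or limma-voom. The libraries of both treatments did not overlap for Il1rn and Csf1, both lower with the compound, as was so for 14.5% of all genes in either direction. Il1rn was at 9.21, 9.06 and 9.76 CPM with vehicle and 7.58, 7.22 and 8.09 CPM with PF-06409577, a log2 fold change of −0.29 ± 0.16 (adjusted p = 0.982). Csf1 was at 5.01, 4.30 and 4.24 CPM with vehicle and 4.18, 3.77 and 2.60 CPM with the compound, a log2 fold change of −0.35 ± 0.28 (adjusted p = 0.982). Both are values of the size of the error and not calls.

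Whether the response differed between genotypes was tested as an interaction, in which no cytokine was called, beside 0.416% of all genes. The largest member was Il1rn, whose response in WT exceeded that in AMPKβ1-/- by 0.78 ± 0.22 on the log2 scale with an adjusted p of 0.135 (unadjusted p = 0.00257 in edgeR). For Il1b the difference was −0.72 ± 0.29 with an adjusted p of 0.287 (unadjusted p = 0.0256). These were the only 2 members under an unadjusted 0.05, which 14.3% of all genes passed. A response limited to WT cells is therefore not shown for any of the 9 transcripts by this test, also in DESeq2 and limma-voom, where none was called.

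Il1rn, Csf1 and Tgfb1 were lower in AMPKβ1-/- than in WT BMDMs with either treatment, and Il1b was higher in AMPKβ1-/- cells when both genotypes had received PF-06409577. The genotype comparisons with vehicle and with PF-06409577 share no libraries. With PF-06409577, 4 of 9 members were called, 3 lower and 1 higher, beside 47.1% of all genes, 22.9% lower and 24.1% higher, and 3 of them passed the log2 limit of 0.8, beside 14.3% of all genes. With vehicle, 4 of 9 were called, all lower, beside 59.7% of all genes, 30% lower and 29.7% higher. The libraries of the genotypes did not overlap for 5 members with PF-06409577, beside 59.9% of all genes, and for 4 with vehicle, beside 62.9%. With either treatment the share of members was below that of all genes for calls in either direction and for groups that did not overlap. It was above that of all genes for calls lower in AMPKβ1-/- cells with either treatment, and for the log2 limit with PF-06409577. With vehicle 0 of 9 members passed the log2 limit, for which the share of all genes is not given here. Whether these counts set 9 members apart from all genes was not tested, and the values of single members follow.

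Il1rn was 22.1, 15.9 and 16.2 CPM in WT and 7.58, 7.22 and 8.09 CPM in AMPKβ1-/- cells with PF-06409577. The lowest WT library was well above the highest AMPKβ1-/- library. The log2 difference was −1.24 ± 0.15 with an adjusted p of 2.1e-05, and it was called in all 22 alternative fits, between −1.57 and −1.07. With vehicle the difference was −0.46 ± 0.15 (adjusted p = 0.0173), and the call was lost without WT vehicle library 1 (0.0843), without AMPKβ1-/- vehicle library 2 (0.0598) and when libraries were scaled by their totals alone (−0.25, adjusted p = 0.149).

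Il1b went the other way with PF-06409577, at 2.06, 2.99 and 2.46 CPM in WT and 4.88, 5.18 and 5.11 CPM in AMPKβ1-/- cells. No library of one genotype reached the range of the other. The log2 difference was 1.02 ± 0.21 (2.02-fold, adjusted p = 0.00117), with 22 of 22 alternative fits called, between 0.83 and 1.16. With vehicle, where AMPKβ1-/- libraries were at 3.46, 4.63 and 5.20 CPM, the groups overlapped and the difference was 0.29 ± 0.20 (adjusted p = 0.227).

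Csf1 was 9.95, 8.24 and 5.69 CPM in WT and 4.18, 3.77 and 2.60 CPM in AMPKβ1-/- cells with PF-06409577. The groups did not overlap, although the WT libraries were widely spread. The log2 difference was −1.16 ± 0.27 (adjusted p = 0.00262) and was called in all 22 alternatives, between −1.36 and −0.97. With vehicle it was −0.79 ± 0.26 (adjusted p = 0.0178), and this call was lost without WT vehicle library 3, the library at 10.9 CPM (−0.46, adjusted p = 0.136), and without AMPKβ1-/- vehicle library 2 (0.0627) or 3 (0.0514).

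Tgfb1 was 584, 516 and 516 CPM in AMPKβ1-/- vehicle cells and 505, 538 and 518 CPM with PF-06409577, below all 6 WT libraries (612 to 902 CPM). The log2 difference from WT was −0.60 ± 0.089 with vehicle (adjusted p = 0.00011) and −0.38 ± 0.089 with PF-06409577 (adjusted p = 0.00294), and both were called in all 22 alternatives. Tnf was 37.3, 38.7 and 34.1 CPM in AMPKβ1-/- vehicle cells, and its log2 difference from WT vehicle cells was −0.27 ± 0.10 (adjusted p = 0.0275), a call lost without WT vehicle library 1 (0.0544) or 3 (0.075) or AMPKβ1-/- vehicle library 3 (0.105). With PF-06409577 the Tnf difference was −0.23 ± 0.10 (adjusted p = 0.0644). Il10 was at 3.22, 3.38 and 2.05 CPM in AMPKβ1-/- cells with the compound, and its difference of 0.68 ± 0.28 from WT had an adjusted p of 0.0576, or 0.015 without WT PF-06409577 library 1 and 0.0306 without AMPKβ1-/- PF-06409577 library 3. Tnfsf9, Osm and Il18 passed in neither genotype comparison, and in AMPKβ1-/- cells of both treatments they spanned 2.46 to 4.45, 3.82 to 4.84 and 2.64 to 4.35 CPM.

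**Figure D3:**
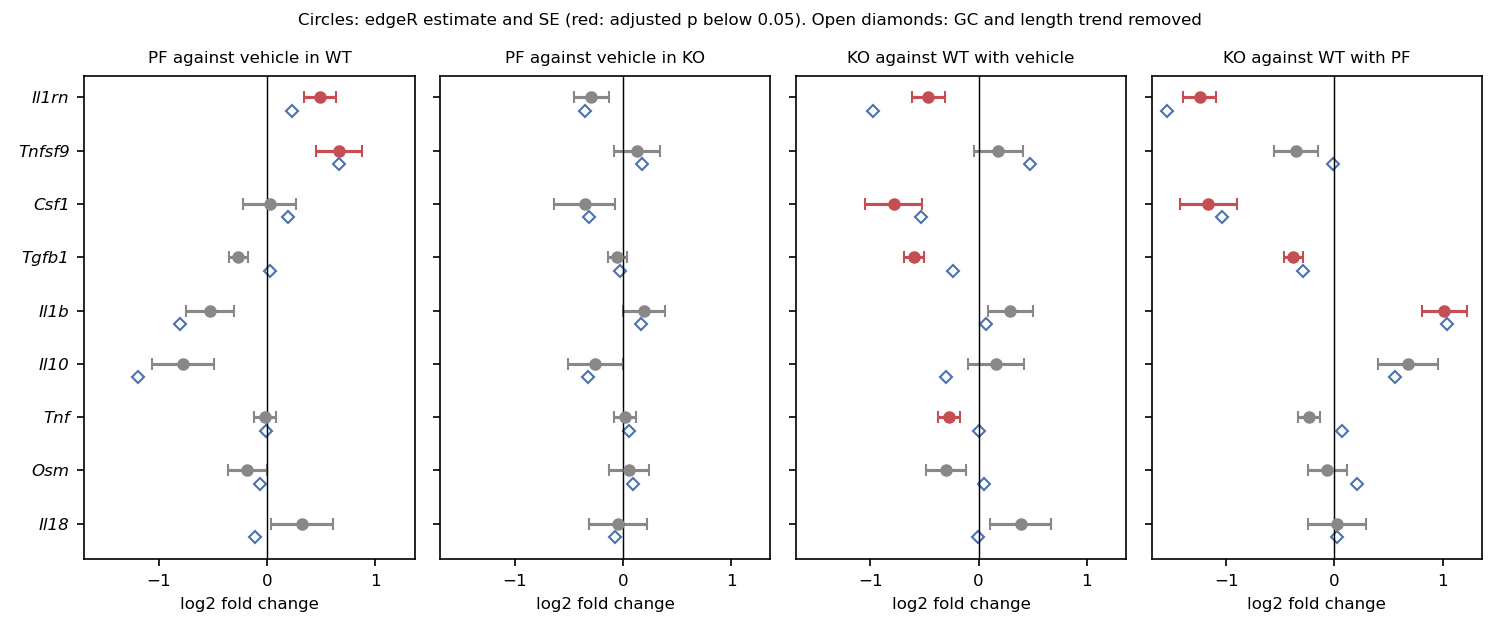
log2 fold change of the 9 cytokine transcripts (x axis) in 4 comparisons, with SE as bars and calls at an adjusted p below 0.05 in red. Open diamonds give the estimate after a trend in GC content and length was removed. Il1rn, Csf1 and Tgfb1 lie to the left and Il1b to the right in AMPKβ1-/- against WT cells with PF-06409577 under both estimates, whereas Il1rn in WT cells moves from 0.49 to 0.23.

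The ratio of Il1rn to Il1b, antagonist to agonist, summarises the opposite positions of this pair and does not depend on how libraries are scaled. Per length it was 1.32, 1.11 and 1.28 in WT vehicle libraries, 3.70, 1.83 and 2.26 in WT PF-06409577 libraries, 0.916, 0.675 and 0.647 in AMPKβ1-/- vehicle libraries and 0.535, 0.480 and 0.545 in AMPKβ1-/- PF-06409577 libraries. The 4 groups did not overlap, and their order does not depend on the lengths used. For PF-06409577 in WT cells and for AMPKβ1-/- against WT cells with PF-06409577, Il1rn and Il1b had each separated the groups, in opposite directions. The separation of the ratio there, and its p below, were therefore fixed and add no evidence to the single values. How often other pairs of genes separate the groups was not tested. Whether the ratio lies above 1 does depend on them. With merged exons it was above 1 in all 6 WT libraries and in no AMPKβ1-/- library, whereas per length of the longest coding transcript it was 1.76 to 5.89 in WT libraries, 1.46, 1.07 and 1.03 in AMPKβ1-/- vehicle libraries and 0.764 to 0.867 in AMPKβ1-/- PF-06409577 libraries. PF-06409577 went with a 2.02-fold higher mean ratio in WT, a log2 difference of 1.01. Without 1 library this difference was 0.72 to 1.23, lowest without WT PF-06409577 library 1. In AMPKβ1-/- cells the log2 ratio was lower by −0.50 with the compound. AMPKβ1-/- cells were lower than WT cells by −0.74 with vehicle and −2.26 with PF-06409577 on the log2 scale. Each of these 4 comparisons had p = 0.1 in a two-sided exact permutation test, the smallest that 3 against 3 libraries allow. Transcript GC content is 45.2% for Il1rn and 46.3% for Il1b, and merged exons span 5535 and 1907 bases. The part of trends in GC content and length in the ratio was not tested.

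**Figure D4:**
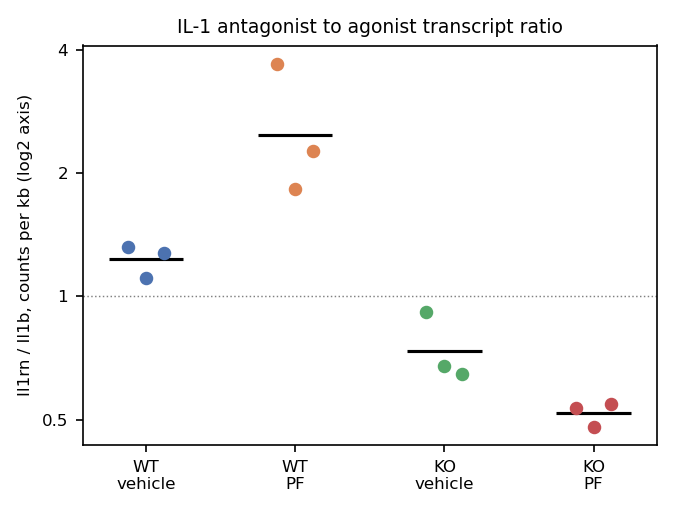
Ratio of Il1rn to Il1b counts per kilobase of merged exons (log2 axis) in each library, with the geometric mean of each group as a bar and equality as a dotted line (KO, AMPKβ1-/-; PF, PF-06409577). WT libraries lie at 1.11 to 3.70 and AMPKβ1-/- libraries at 0.480 to 0.916, and the place of the dotted line among them holds for merged exon length only.

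Transcript GC content moved with the comparisons. Over 10779 genes the log2 fold change of PF-06409577 had a Spearman correlation with GC content of −0.71 in WT and −0.46 in AMPKβ1-/- cells. The correlation was −0.50 for the interaction. For AMPKβ1-/- against WT cells it was −0.76 with vehicle and −0.56 with PF-06409577. After the trend in GC content and length was removed from each library, Il1rn in WT cells had a log2 fold change of 0.23 with PF-06409577 (adjusted p = 0.526) and Tnfsf9 0.67 (0.0569), while Il10 at −1.19 (adjusted p = 0.0223) and Il1b at −0.80 (0.0184) were called. Tgfb1, the member richest in GC at 62.5%, went from −0.27 to 0.02. Of the genotype differences with PF-06409577, all 4 remained, with Il1rn at −1.55 (adjusted p = 1.35e-05), Il1b at 1.04 (0.000246), Csf1 at −1.04 (0.00184) and Tgfb1 at −0.29 (0.000845). Of those with vehicle, Il1rn at −0.97 (adjusted p = 0.00147) and Tgfb1 at −0.24 (0.00414) remained, and Csf1 (0.0792) and Tnf (0.976) did not. With either other way to remove the trend, Tgfb1 was at −0.16 and −0.19 with vehicle and at −0.19 and −0.20 with PF-06409577. The part of library chemistry in these trends was not tested.

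**Figure D5:**
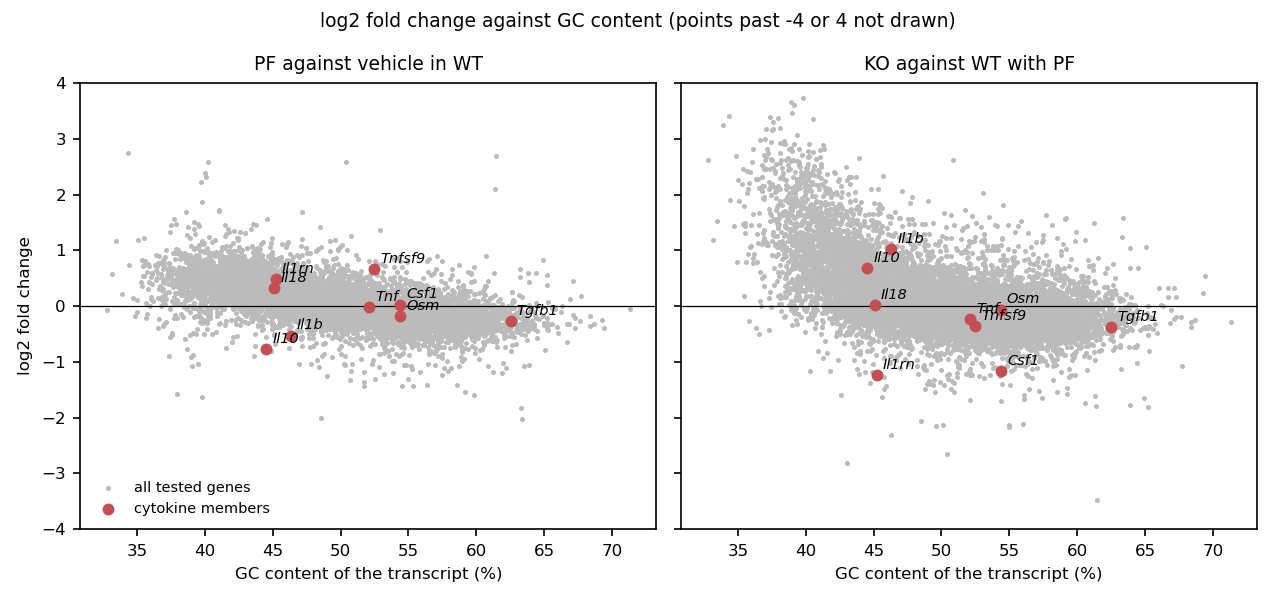
log2 fold change against the GC content of the transcript (percent) for all tested genes in grey and the 9 cytokines in red, for PF-06409577 in WT cells and for AMPKβ1-/- against WT cells with PF-06409577; 0 and 4 genes past the axis are not drawn. Il10 and Il1b lie below, and Tnfsf9 above, most genes of like GC content in WT cells, and Il1rn and Csf1 lie at the lower edge in the genotype comparison.

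Receptors through which these cytokines would act on the macrophage itself were called with PF-06409577 in WT cells at a share near that of all genes. Of 20 receptor genes 16 were tested, and 0 rose and 2 fell, beside 15.9% of all genes called, 6.99% higher and 8.95% lower. The 2 calls held in all 22 alternative fits, and the median log2 fold change of the tested receptors was −0.21. Csf1r, the receptor for M-CSF that defines the lineage, was at 7372 ± 734 CPM with vehicle and 4937 ± 300 CPM with the compound (SD, n = 3), and the log2 change was −0.58 with an SE of 0.094 (adjusted p = 0.00207). Il10ra, the ligand-binding chain of the IL-10 receptor, was at 320.5 ± 14.5 and 226 ± 10.8 CPM, with −0.50 ± 0.075 (adjusted p = 0.00129). In AMPKβ1-/- cells no receptor was called, with −0.15 for Csf1r and −0.06 for Il10ra. The interaction was not called for either receptor (adjusted p = 0.171 and 0.0767). The receptors for TNF were abundant in WT vehicle cells, at 280 ± 14.5 CPM for Tnfrsf1a and 1152 ± 114 CPM for Tnfrsf1b, as were Il6st at 292 ± 6.15, Il10rb at 325 ± 18.98, Il6ra at 139 ± 7.10 and Tgfbr2 at 138 ± 12.3 CPM. By contrast, Il1r1, the signalling receptor for IL-1, was read 1 to 13 times per library, and Osmr at most 2 times and Tnfrsf9 at most 8 times, both under the filter. Il18rap, a chain of the IL-18 receptor, had 7 to 26 counts, and Il18r1 was not analysed here.

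Between genotypes, 4 receptors were higher and 5 lower in AMPKβ1-/- cells with vehicle, beside 59.7% of all genes called, and 5 were higher and 3 lower with PF-06409577, beside 47.1%, of 16 tested. Tgfbr1, the kinase chain of the TGF-β receptor, was higher by 1.77 on the log2 scale with vehicle (adjusted p = 0.000201) and 1.60 with the compound (adjusted p = 0.000383), the opposite direction to its ligand Tgfb1, and by 0.71 and 0.72 after the trend in GC content and length was removed. The chains of the IL-1 system also differed. The shared signalling chain Il1rap was higher by 1.09 with vehicle (adjusted p = 0.00727) and 1.07 with PF-06409577 (0.00676), but at 0.0080 and 0.17 after the trend was removed, where neither was called (0.981 and 0.478). The decoy receptor Il1r2 was lower by −1.03 (adjusted p = 0.0327) and −1.34 (0.00845) at 5 to 34 counts per library. Its call with vehicle was lost after the trend was removed (−0.94, 0.0646), in DESeq2 (0.0622), with scaling by library size alone (0.0936) and without WT vehicle library 1 (0.175) or AMPKβ1-/- vehicle library 2 (0.168). The inhibitory family member Sigirr was lower by −1.64 (0.000122) and −0.99 (0.00452), or −1.23 and −0.75 after the trend was removed, and was called in all 22 alternatives with either treatment. Il6ra was higher by 0.31 (adjusted p = 0.0041) and 0.37 (0.0019), and not called when the length of the longest coding transcript was used in removing the trend (0.10 and 0.063). Il10ra was higher in AMPKβ1-/- cells with PF-06409577 (0.33, adjusted p = 0.00224), or 0.52 after the trend was removed. Lifr, a receptor chain for the IL-6 family, was higher by 0.98 (0.000719) with the compound, or 0.38 after the trend was removed, and by 0.51 (0.0277) with vehicle, where it turned to −0.28 (0.114) after the trend was removed and was not called without WT vehicle library 1 or 3 or AMPKβ1-/- vehicle library 2 or 3 (0.0706 to 0.0995). Tnfrsf1a, Csf1r and Tnfrsf1b were lower with vehicle (−0.37, −0.28 and −0.21, adjusted p = 0.0017, 0.0171 and 0.0466), values that became 0.03, −0.05 and 0.08 after the trend was removed. The Csf1r call was also lost without WT vehicle library 3 or AMPKβ1-/- vehicle library 2 or 3 (up to 0.0901), and that of Tnfrsf1b was kept in only 5 of 22 alternatives. Il10rb was lower with PF-06409577 (−0.25, adjusted p = 0.00858), and was not called with scaling by library size alone (−0.10, 0.198) or with the trend in GC content and coding transcript length removed (−0.095, 0.145).

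Among genes that process, release or trap the cytokines, 0 of 20 tested rose and 4 fell with PF-06409577 in WT cells, beside 6.99% and 8.95% of all genes, with a median log2 fold change of −0.12. Ltbp3 and Ltbp2, which encode latent TGF-β binding proteins, had log2 fold changes of −0.61 (adjusted p = 0.00295) and −0.74 (0.0291). Nrros, which anchors latent TGF-β1 on myeloid cells, was at 500.4 ± 24.7 CPM with vehicle and 409 ± 50.9 CPM with the compound, −0.29 ± 0.086 (adjusted p = 0.0338), and the inflammasome sensor gene Nlrp3 had −0.28 (adjusted p = 0.0376). Only the call of Ltbp3 held in all 22 alternative fits, at −0.30 (adjusted p = 0.0164) after the GC and length trend was removed, when Ltbp2 was at −0.46 (adjusted p = 0.103), Nrros at −0.15 (0.151) and Nlrp3 at −0.23 (0.0755). Leaving out WT vehicle library 3 or WT PF-06409577 library 2 or 3 also ended the calls of Ltbp2, Nrros and Nlrp3, as did WT vehicle library 1 for Ltbp2 and Nrros, WT vehicle library 2 for Nlrp3, and AMPKβ1-/- PF-06409577 library 1 for Nrros and any of the 3 for Nlrp3, with adjusted p of up to 0.118, 0.182 and 0.144 over the alternatives. None of the list was called in AMPKβ1-/- cells. Between genotypes, 8 genes of the list were higher and 6 lower with vehicle, beside 59.7% of all genes called, and 8 higher and 4 lower with PF-06409577, beside 47.1%. Itgav, the integrin chain that releases TGF-β1 from its latent complex, was higher by 1.20 with vehicle (adjusted p = 0.000112) and 1.22 with the compound (9.82e-05), or 0.31 and 0.52 after the trend was removed. Nrros at −0.43 (adjusted p = 0.000673), Ltbp3 at −0.54 (0.000642) and the pore-forming gasdermin Gsdmd at −0.45 (0.000506) were lower with vehicle. After the trend was removed these were at −0.17 (adjusted p = 0.0396), −0.32 (0.00237) and −0.09 (0.268), and Ltbp3 was not called with the GC trend alone removed (−0.13, 0.201). With PF-06409577, Nlrp1b at 1.07 (adjusted p = 0.000681) and Nlrp3 at 0.44 (0.000704) were higher, and Il18bp, the soluble inhibitor of IL-18, was lower (−0.70, adjusted p = 0.00208), and these 3 were called in all 22 alternatives.

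Regulators of cytokine mRNA decay moved in both directions in WT cells with PF-06409577, with 1 higher and 4 lower of 18 tested, beside 15.9% of all genes called, and a median log2 fold change of 0.03. Those called lower with the smallest p were Dusp1, a phosphatase of p38 (−0.46, adjusted p = 0.0162), the endonuclease gene Zc3h12a (−0.39, 0.0186), the deadenylase subunit Cnot3 (−0.40, 0.0208) and the p38 target Mapkapk2 (−0.28, 0.0234). None of these 4 calls held once the trend in GC content and length was removed (adjusted p = 0.0699, 0.204, 0.223 and 0.633), and each was also lost without WT vehicle library 3 or WT PF-06409577 library 2 or 3 and, except for Zc3h12a, without WT vehicle library 1, with adjusted p of up to 0.0795, 0.264, 0.223 and 0.82 over the alternatives. In AMPKβ1-/- against WT cells 11 genes of the list were higher and 2 lower with vehicle, beside 29.7% and 30% of all genes, and 12 were higher and 0 lower with PF-06409577, beside 24.1% and 22.9%. The median log2 fold changes were 0.48 and 0.44, against −0.03 and −0.00 over all tested genes. With PF-06409577, Zc3h12c was higher by 2.03 (adjusted p = 2.23e-06), Rc3h2, which encodes a roquin, by 1.86 (2.83e-06), Dusp1 by 1.01 (6.58e-06) and Zfp36l1 by 0.91 (4.49e-05). With vehicle, Rc3h2 was higher by 2.19 (8.5e-06), Zc3h12c by 1.90 (1.6e-05), Cnot7 by 1.15 (0.000154) and Tia1 by 1.60 (0.000246). After the trend in GC content and length was removed, most of these values shrank. With PF-06409577, Zc3h12c was at 1.17 and Rc3h2 at 0.27 (adjusted p = 0.0799, no longer called), while Dusp1 was at 1.22 and Zfp36l1 at 1.04. With vehicle, Rc3h2 was at 0.65 and Zc3h12c at 0.86, and Cnot7 at 0.08 (0.67) and Tia1 at 0.35 (0.13) were no longer called.

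Of 30 signal transducers of these receptors, 1 rose and 7 fell with PF-06409577 in WT cells, beside 6.99% and 8.95% of all genes, with a median log2 fold change of −0.05. Smad3, which carries the TGF-β signal to the nucleus, was at 20.4 ± 0.280 CPM with vehicle and 13.2 ± 0.832 CPM with the compound, a log2 fold change of −0.62 ± 0.11 (adjusted p = 0.00358) that was called in all 22 alternatives. Traf1, an adaptor of TNF receptors, fell by 0.44 on the log2 scale (adjusted p = 0.00822), and the Janus kinase gene Tyk2 by 0.35 (0.0228), while Map3k7, the kinase TAK1 of the IL-1 and TGF-β pathways, rose by 0.60 (0.0222). The calls of Tyk2 (adjusted p = 0.35) and Map3k7 (0.0748) were lost after the GC and length trend was removed, and without WT PF-06409577 library 3 and without either of WT vehicle libraries 1 and 3, and Tyk2 also without WT PF-06409577 library 2. Traf1 was lost without WT PF-06409577 library 3, and its adjusted p was at most 0.0534 over the alternatives. For Smad3 the interaction had an adjusted p of 0.0702, and its log2 fold change in AMPKβ1-/- cells was 0.05. Between genotypes, 12 transducers were higher and 7 lower with vehicle, beside 59.7% of all genes called, and 11 higher and 5 lower with PF-06409577, beside 47.1%. Skil, which encodes a repressor of SMAD proteins, was higher by 2.03 with vehicle (adjusted p = 1.5e-05) and 1.86 with the compound (8.81e-06), and Tab3, a partner of TAK1, by 2.10 (0.000204) and 1.55 (0.000699). Map3k7 and Jak2 were higher with vehicle by 1.08 (adjusted p = 9.59e-05) and 1.24 (0.000133), and Traf3 with PF-06409577 by 0.50 (0.000356). After the trend in GC content and length was removed these calls held at smaller values, 0.87 and 0.84 for Skil, 1.10 and 0.72 for Tab3, 0.53 for Map3k7, 0.63 for Jak2 and 0.49 for Traf3. Sos1, higher with PF-06409577 by 0.77 (adjusted p = 0.000789), was at −0.30 after the trend was removed.

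Of 40 other cytokine ligands 24 had a row and 16 were tested, of which 1 rose and 2 fell in WT cells with PF-06409577, beside 15.9% of all genes called. Il16, a ligand of CD4, was at 44.9 ± 3.70 CPM with vehicle and 29.2 ± 1.09 CPM with PF-06409577 in WT, and at 28.1 ± 1.58 and 29.5 ± 0.251 CPM in AMPKβ1-/- cells. Its log2 fold change in WT was −0.62 ± 0.091 (adjusted p = 0.00123, called in all 22 alternatives), and it was the only gene of the ligand, receptor, processing, decay and transducer lists with a called interaction (−0.69 ± 0.13, adjusted p = 0.0358). That interaction was lost in 9 of 21 alternatives, all of them fits without 1 library: WT vehicle 1 or 2, WT PF-06409577 2 or 3, AMPKβ1-/- vehicle 2 or 3, or any AMPKβ1-/- PF-06409577 library, with adjusted p of up to 0.133. Gdf15, a stress-induced TGF-β family member, rose by 0.60 (adjusted p = 0.0418), and Ebi3, a subunit of IL-27 and IL-35, fell by 0.31 (0.0235), or 0.19 with an adjusted p of 0.175 after the trend was removed. The call of Ebi3 was also lost without WT PF-06409577 library 2 or 3 and without either of WT vehicle libraries 1 and 3, and that of Gdf15 without any 1 of the 6 WT libraries, AMPKβ1-/- vehicle library 2 or 3 or AMPKβ1-/- PF-06409577 library 3 (adjusted p up to 0.103). In AMPKβ1-/- against WT cells, Gdf15 was lower by −1.30 with vehicle (adjusted p = 0.000187) and −1.62 with the compound (2.1e-05), and Tnfsf12 by −0.63 (5.64e-05) and −0.68 (1.91e-05). After the trend was removed Gdf15 was at −0.83 and −1.33, and Tnfsf12 at −0.16 with vehicle (adjusted p = 0.0519, no longer called) and −0.33 with the compound. Il16 (−0.67, adjusted p = 6.8e-05) and Ebi3 (−0.53, 0.000149) were lower with vehicle, of which Il16 was at −0.57 and Ebi3 at −0.08 (0.5) after the trend was removed, and Ebi3 was called under none of the 3 ways to remove it. With PF-06409577, Mif was lower (−0.84, adjusted p = 3.31e-05, or −0.38 after the trend was removed) and Igf1 higher (0.94, 5.47e-05), and Igf1 was at −0.64 (0.000602) after the trend in GC content and length was removed.

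Genes with the pattern most like that of 8 of the 9 cytokines over the 12 libraries were taken by the Pearson correlation of log2 CPM, as a description of libraries that share genotype, treatment and the GC trend. Il1rn was closest to Sgpl1 and Acat2 (r = 0.98 and 0.97), Tgfb1 to Arfgap2 and Fbxw8 (0.99 for both) and Csf1 to Parp12 and Tor3a (0.97 and 0.96). Tnf was closest to Tmem268 and Rtn1 (0.94 for both), Il1b to Ppp1r21 and Mob3b (0.93 and 0.92) and Il10 to Sez6l2 and Traf3ip2 (0.91 and 0.90). Osm, with Atpsckmt and Rab44 (0.86 and 0.84), and Il18, with Kpna2 and Mcph1 (0.85 and 0.83), had the weakest matches of these 8.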

How the data were processed

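Total RNA of 12 BMDM cultures was sequenced from directional libraries. Before deposit the authors ran MultiQC as a quality check, Trim Galore to remove adapters and weak bases, and Salmon to estimate transcript abundance; versions, genome build and annotation are not given in the sources used here. The deposited values are estimated counts per gene symbol, rounded to whole numbers and not normalized. Genotype and treatment came from the names of the count columns, and 0 columns were left unused.

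Counts were scaled by TMM and tested with edgeR 4.0.16 (R 4.3.3; filterByExpr, robust quasi-likelihood fit of the 4 group means over all 12 libraries, Benjamini-Hochberg adjustment). Intervals use the SE and the residual degrees of freedom. CPM use TMM-scaled totals, and FPKM divide them by merged exon length in GENCODE M21 on GRCm38. Symbols matched that annotation for 12703 genes, by an older symbol for 167, and not for 90. GC content is that of the longest coding transcript, with 99.6% of tested genes covered. The trend in GC content and length was removed with splines of 5 degrees of freedom. Alternatives used DESeq2 1.42.0, limma-voom (limma 3.58.1), other scaling and filters, the libraries of a comparison alone, and leaving out each library. The scripts were tested on simulated data.

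Members and gene lists were chosen with earlier results of these data known. All members are named, together with, per list and comparison, up to 4 called genes with the smallest p, the receptors, and the 2 genes of most similar pattern, which for Tnfsf9 are not reported here.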

Additional observations from a re-analysis of the deposited data

How the results depend on the processing

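The 4 cytokines called between genotypes with PF-06409577 (Il1rn, Il1b, Csf1 and Tgfb1) were called under each of 22 alternatives, with 4 or 5 members called in all, and the log2 ratio of Il1rn to Il1b kept its direction in each comparison. No member was called for PF-06409577 in AMPKβ1-/- cells or for the interaction under any alternative run. The 2 calls for PF-06409577 in WT cells became 1 with no filter on low counts, 1 with limma-voom and 0 with the libraries of the comparison alone, and 0 to 3 without 1 library. DESeq2 also called 2, but these were Il1rn and Tgfb1. The 4 calls between genotypes with vehicle became 1 with scaling by library size alone and 2 with each of the 3 ways to remove the GC trend, 2 of which were added after seeing the data, and 2 to 4 without 1 library. Over all tested genes the number called ranged from 346 to 3243 for PF-06409577 in WT cells (1725 as reported), from 0 to 62 in AMPKβ1-/- cells (6), from 5 to 284 for the interaction (45), from 3718 to 6646 between genotypes with vehicle (6465) and from 3910 to 5452 with PF-06409577 (5094). The cause of these shifts was not tested. After removal of the trend in GC content and length, 2 members were called for PF-06409577 in WT cells as in the reported fit, but they were Il10 and Il1b, both lower, in place of Il1rn and Tnfsf9. Either other way to remove the trend called Tnfsf9 as well. The names of the count columns carry numbers 1 to 3 in every group, which the sample titles do not. Same-numbered libraries of different groups did not deviate together: of 18 such pairs 6 had a correlation of deviations over 0.1 (range −0.18 to 0.32), and 1 of 12 libraries correlated best with its own number in every other group. A fit with the number as a replicate block, added after seeing the data and not counted among the 22 alternatives, called 2, 0, 0, 4 and 4 members in the 5 comparisons, with Tgfb1 (−0.27, adjusted p = 0.0376) called and Tnfsf9 (0.66, 0.0588) not called for PF-06409577 in WT cells and no other member's call changed, and called 1983, 0, 47, 6446 and 5185 of all genes. Of the levels per length, those of Il1rn, Tgfb1, Il1b and Csf1 depend on the transcript length used.

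These log2 values changed sign. With scaling by library size alone, Tnf was at 0.059 for PF-06409577 in WT cells and 0.020 for the interaction, Osm at 0.084 between genotypes with PF-06409577, and Tnfrsf1b at 0.0014 with vehicle. With the trend in GC content and length removed, the values for PF-06409577 in WT cells were −0.11 for Il18 and 0.024 for Tgfb1, and for the interaction −0.038 and 0.047. Between genotypes with vehicle they were 0.0041 for Tnf, −0.31 for Il10, −0.010 for Il18, 0.053 for Osm, 0.031 for Tnfrsf1a, 0.075 for Tnfrsf1b and −0.28 for Lifr, and with PF-06409577 0.070 for Tnf, 0.21 for Osm, −0.30 for Sos1 and −0.64 for Igf1. With the length of the longest coding transcript in place of merged exons, they were 0.022 for Tnf, −0.11 for Il18 and 0.0093 for Tgfb1 in WT cells, −0.048 for Il18 and 0.037 for Tgfb1 for the interaction, −0.31 for Il10, −0.0092 for Il18, 0.032 for Osm, 0.025 for Tnfrsf1a, 0.019 for Tnfrsf1b and −0.39 for Lifr with vehicle, and 0.023 for Tnf, 0.14 for Osm, −0.42 for Sos1 and −0.71 for Igf1 with PF-06409577. With the GC trend alone removed, Tnf was at 0.058 in WT cells and 0.011 for the interaction, where Tgfb1 was at 0.0049. Between genotypes it gave −0.073 for Il1b, −0.46 for Il10, −0.16 for Il18, 0.039 for Tnfrsf1b and −0.13 for Lifr with vehicle, and −0.29 for Il18, 0.096 for Osm, −0.13 for Sos1 and −0.48 for Igf1 with PF-06409577.

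Fits without 1 library crossed 0 for these. For PF-06409577 in WT cells, Csf1 ranged from −0.17 to 0.35 (−0.17 and −0.0011 without WT PF-06409577 library 1 and 2, −0.066 and −0.16 without WT vehicle library 1 and 2) and Tnf from −0.062 to 0.068 (0.068 and 0.0089 without WT PF-06409577 and WT vehicle library 3). For the interaction, Tnf ranged from −0.088 to 0.044 (0.041, 0.0076 and 0.044 without WT PF-06409577 library 3, AMPKβ1-/- vehicle library 3 and AMPKβ1-/- PF-06409577 library 2). In AMPKβ1-/- cells, Tgfb1 at 0.012 and Tnfsf9 at −0.065 turned without vehicle library 1, Il18 at 0.052, 0.065 and 0.034 without vehicle library 2 or 3 or PF-06409577 library 3, Tnf at −0.027 and −0.063 without vehicle library 3 or PF-06409577 library 2, and Osm at −0.017 without vehicle library 3. Between genotypes with PF-06409577, Il18 was at −0.17, −0.042 and −0.068 without WT PF-06409577 library 1 or 2 or AMPKβ1-/- PF-06409577 library 2, and Osm at 0.031 without WT PF-06409577 library 1. Of these values only those of Tnf, Tnfrsf1a, Tnfrsf1b and Lifr with vehicle and of Sos1 and Igf1 with PF-06409577 belong to genes called as reported. Members other than Tnf, Tgfb1 and Il1rn had few counts, 28 to 116 per library for Csf1 and 13 to 71 for the rest. The part of depth in their results was not tested.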

Other observations

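Kit, the only gene with a row in the list of mast cell and basophil markers, was at 1.11 to 1.59 CPM in WT vehicle libraries, 2.49 to 4.02 CPM in WT PF-06409577 libraries, 0.424 to 0.652 CPM in AMPKβ1-/- vehicle libraries and 0.785 to 0.871 CPM in AMPKβ1-/- PF-06409577 libraries. Its log2 fold change in WT was 1.42 (adjusted p = 0.00506 in edgeR). Like Il1rn, it was highest in WT cells with the compound, and its part in the Il1rn result was not tested.

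Among genes that lipopolysaccharide induces, 7 of 18 were tested and none was called in WT cells with PF-06409577 in edgeR's test, beside 15.9% of all genes called (1 had an unadjusted p below 0.05). In AMPKβ1-/- against WT cells with PF-06409577, 1 was higher and 3 lower, beside 47.1% of all genes called. The chemokine gene Ccl5 was lower (−1.24, adjusted p = 2.64e-05), or −0.84 (0.000553) after the trend in GC content and length was removed. Cd40 (−0.53, 0.0252) and Acod1 (−0.86, 0.0213) were also lower and the neutrophil chemoattractant gene Cxcl2 higher (0.79, 0.00359), but none of these 3 was called after the trend was removed (adjusted p = 0.0562, 0.0879 and 0.0691). The calls of Cd40 and Acod1 were also lost without WT PF-06409577 library 1 or AMPKβ1-/- PF-06409577 library 3, and that of Cd40 without WT PF-06409577 library 2.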
